A study of Homo sapiens with 12 samples.

Results

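Small nucleolar RNA host genes are transcribed units whose introns hold small nucleolar RNAs, or snoRNAs. SNHG5, SNHG6 and SNHG15 are 3 such genes without a protein product, and they are 3 of the 1676 genes in the table deposited for 12 libraries. They were selected by name. The name column of the table is empty for all 3, so each was found through its Ensembl identifier, which a gene name table pairs with the symbol. RNA came from the established human neuroblastoma line SH-SY5Y, taken 24 h after the cells were transfected with a construct for tau, a protein that binds microtubules. Tau-S199E carried a glutamate in place of a serine, a change used to mimic phosphorylation. Tau-K174Q carried a glutamine in place of a lysine, a change used to mimic acetylation. Tau-K174Q-S199E carried both changes, and Tau-WT was the wild-type protein. Each construct had 3 libraries, made from 400 ng of RNA with a 3′ mRNA kit that reads near the end of polyadenylated transcripts. Every group therefore received a tau construct, an untransfected group was not analysed here, and the promoter that drives the constructs is not given in the sources used here. No label states whether the 3 libraries of a construct are separate cultures. The p-values here thus cover the spread among libraries alone, and that spread may be technical.

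The transcript of a host gene is spliced, and its excised introns are trimmed to snoRNAs. Box C/D snoRNAs guide the methylation of ribosomal RNA at the ribose, and box H/ACA snoRNAs guide the conversion of uridine to pseudouridine. Many host genes begin with a terminal oligopyrimidine tract, the start also found in messenger RNAs of ribosomal proteins and translation factors. The spliced exons often carry stop codons early in short reading frames, and for several host genes the spliced RNA is known to be removed by nonsense-mediated decay. A library of polyadenylated RNA holds the spliced host transcript and not the mature snoRNAs, and the table listed 0 genes of the type snoRNA. The values below are therefore levels of host transcripts.

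SNHG5 (ENSG00000203875) lies on the minus strand of chr6:85660950-85678748 in GRCh38, with 23 transcripts in GENCODE 29. It holds SNORD50B, a box C/D snoRNA that is intronic in 21 of these transcripts and exonic in 2. SNORD50A is the other snoRNA known from this gene. SNHG15 (ENSG00000232956) lies on the minus strand of chr7:44983023-44986961 with 10 transcripts, and holds SNORA9, an H/ACA snoRNA that is intronic in 8 transcripts and exonic in 1. The snoRNAs of SNHG5 and SNHG15 are printed 5′ to 3′ from GENCODE 29 because they are the products that give the host genes their class. Capitals mark box C (TGATGA) and box D (CTGA) in SNORD50B, on the minus strand of chr6:85677589-85677658, and the ACA box of SNORA9, on the minus strand of chr7:44985378-44985510.
SNORD50B: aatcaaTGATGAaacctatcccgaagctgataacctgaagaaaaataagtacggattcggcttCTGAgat
SNORA9: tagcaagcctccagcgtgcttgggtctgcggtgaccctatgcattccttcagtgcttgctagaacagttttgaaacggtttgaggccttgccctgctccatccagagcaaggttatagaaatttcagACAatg

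The part of a host transcript that the 3′ kit reads is its polyadenylated end, so the last 60 bases are shown for the GENCODE transcript that matches the first RefSeq transcript of each of these 2 genes. The SNHG5 transcript has 430 bases and ends in chr6:85677084-85677143, and the SNHG15 transcript has 982 bases and ends in chr7:44983023-44983082. Both are on the minus strand of GRCh38. Capitals mark AATAAA, the usual polyadenylation signal, which ended 13 bases before the end of the SNHG5 transcript and 19 bases before that of SNHG15. Other transcripts of these genes may end elsewhere, and the deposited values do not separate them.
SNHG5: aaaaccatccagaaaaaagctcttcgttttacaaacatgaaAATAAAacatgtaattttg
SNHG15: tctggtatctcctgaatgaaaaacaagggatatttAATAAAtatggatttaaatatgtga

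The promoter of SNHG5, from 250 bases before to 50 bases after the start, was the only one of the 3 in the RefSeq table used (GRCh38.p14, chr6:85678684-85678983, minus strand). It is shown for its start, since a pyrimidine start is the feature by which host genes are grouped with translation messenger RNAs. Capitals mark CCAAT, which began 80 bases before the start, TATAA, which began 30 bases before it, and the tract of 5 pyrimidines that begins at the start itself.
SNHG5: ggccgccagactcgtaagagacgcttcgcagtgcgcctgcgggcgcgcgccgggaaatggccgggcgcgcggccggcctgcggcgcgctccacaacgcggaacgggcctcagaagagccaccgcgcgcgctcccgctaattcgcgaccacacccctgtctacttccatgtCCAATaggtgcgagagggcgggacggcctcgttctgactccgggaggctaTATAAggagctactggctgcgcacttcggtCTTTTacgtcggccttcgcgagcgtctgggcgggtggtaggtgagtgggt

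The 3 motifs were chosen after this sequence was seen, and they do not overlap in it. A C at the first base followed by at least 4 bases of C or T was found in 4.07% of 35116 RefSeq promoters. The share was 6.67% among the 1828 promoters of genes in the deposited table. TATAA on the gene's strand, from 40 to 16 bases before the start, had shares of 3.91% and 3.61% in these 2 sets. CCAAT on either strand had shares of 34.6% and 35.2%. Of the 8 noncoding host genes of the deposited table that have a promoter in the RefSeq table, SNHG5 included, 3 had the pyrimidine start, 3 had TATAA and 3 had CCAAT. ZFAS1 and SNHG32 were the other 2 with the pyrimidine start. A match describes the letters in the window and is not a measured site.

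SNHG6 (ENSG00000245910) lies on the minus strand of chr8:66921684-66926398 with 5 transcripts, and holds the box C/D snoRNA SNORD87, intronic in 4 and exonic in 1. The 3′ end of SNHG6 overlaps 365 bases of MCMDC2, a gene on the plus strand that is not among the 1676. The strand setting of the counting is not given in the sources used here, so reads in that overlap cannot be told apart.

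The 12 library values of a gene are standardised to mean 0 and SD 1 over the libraries, so they are given in SD units of that gene. They hold no level, depth or fold size, and no gene can be called more abundant than another from them. Libraries are named by the numbers in the deposited column names. SNHG5 measured 1.45, 0.55 and 1.28 SD units in Tau-S199E libraries 10, 11 and 12, and 0.22, 0.71 and -0.66 in Tau-K174Q libraries 4, 5 and 6. It measured -0.21, -0.79 and 0.87 in Tau-K174Q-S199E libraries 16, 17 and 18, and -0.52, -1.64 and -1.27 in Tau-WT libraries 1, 2 and 3. Every Tau-S199E library lay above every Tau-WT library, as in 50.5% of all genes, and the other 2 constructs lay between with some overlap. In bulk RNA, fewer cells of a type and less RNA per cell cannot be told apart.

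SNHG6 measured 0.88, 0.63 and 2.30 SD units in Tau-S199E libraries 10, 11 and 12, and 0.38, -0.02 and -0.04 in Tau-K174Q libraries 4, 5 and 6. It measured -0.88, -0.38 and 0.28 in Tau-K174Q-S199E libraries 16, 17 and 18, and -0.83, -1.16 and -1.16 in Tau-WT libraries 1, 2 and 3. Tau-S199E stood above the other 3 constructs with no overlap, and library 12 was its highest by a wide margin. Pair by pair, Tau-S199E libraries lay above without overlap in 50.5% of genes against Tau-WT, 22.1% against the double construct and 17.7% against Tau-K174Q. The share of genes for all 3 at once is not given here. SNHG15 measured 0.86, 0.67 and 1.64 SD units in Tau-S199E libraries 10, 11 and 12, and 0.40, 0.54 and -0.47 in Tau-K174Q libraries 4, 5 and 6. It measured -0.85, -0.16 and 0.95 in Tau-K174Q-S199E libraries 16, 17 and 18, and -1.78, -1.03 and -0.78 in Tau-WT libraries 1, 2 and 3. Library 18 of the double construct was that construct's highest in all 3 host genes, and for SNHG5 and SNHG15 it lay inside the range of Tau-S199E.

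The 3 genes shared one order of construct means, with Tau-S199E highest, then Tau-K174Q, Tau-K174Q-S199E and Tau-WT. The same order held for 640 of the 1676 genes, or 38.2%. SNHG5 averaged 1.09 ± 0.48 SD units in Tau-S199E, 0.09 ± 0.70 in Tau-K174Q, -0.04 ± 0.84 in Tau-K174Q-S199E and -1.14 ± 0.57 in Tau-WT (SD, n = 3 each). SNHG6 averaged 1.27 ± 0.90 in Tau-S199E, 0.11 ± 0.24 in Tau-K174Q, -0.32 ± 0.58 in Tau-K174Q-S199E and -1.05 ± 0.19 in Tau-WT. SNHG15 averaged 1.06 ± 0.51 in Tau-S199E, 0.16 ± 0.55 in Tau-K174Q, -0.02 ± 0.90 in Tau-K174Q-S199E and -1.20 ± 0.52 in Tau-WT. Among neighbours in this order, no pair passed the test over all genes in any of the 3, and only the highest and the lowest construct were separated by it.

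**Figure D1:**
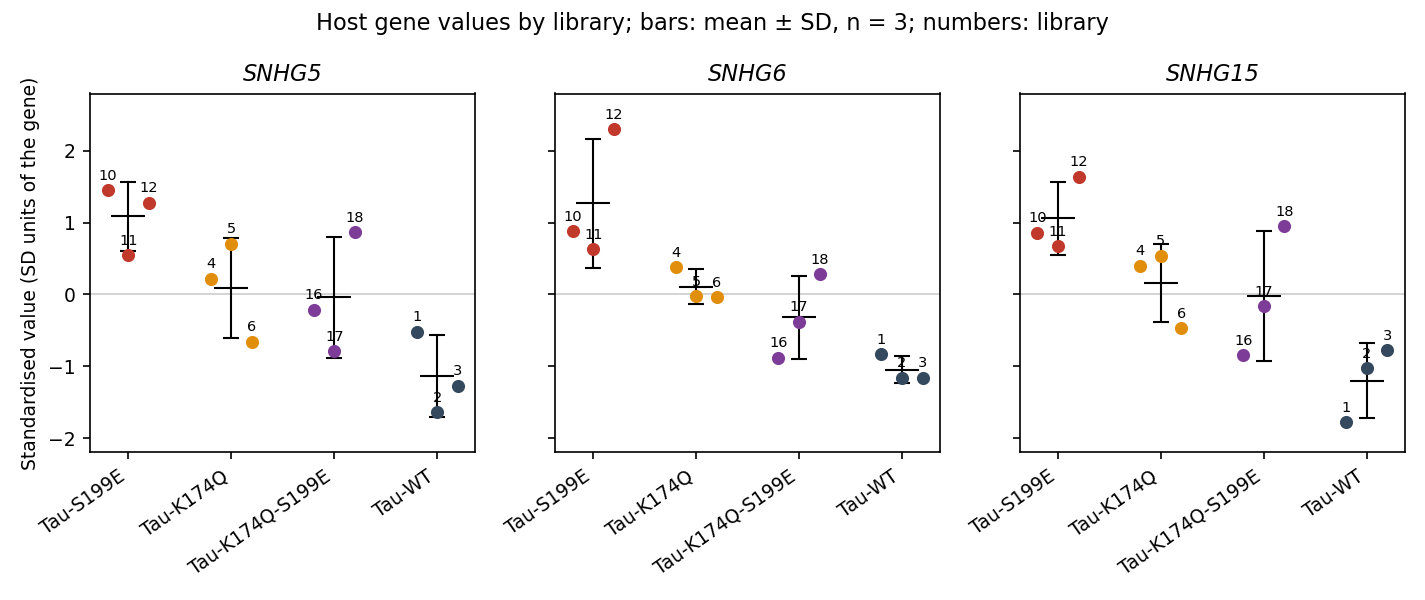
Standardised value of each host gene (vertical axis, SD units of the gene) in the 12 libraries by construct. Points are libraries with their numbers, and bars are the mean ± SD of 3 libraries. All Tau-S199E libraries lie above all Tau-WT libraries in each panel, as in 50.5% of all genes, and library 18 is the highest of the double construct.

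Library 12 had the widest values over all genes of the table, with an SD of 1.67 over genes against 0.47 to 1.21 in the other 11 libraries, and a median of 0.63. Results that rest on it are therefore also given without it. Neuroblastoma identity could not be checked from the table, since 0 of 17 sympathetic markers are among its genes, which the authors had selected. Of 14 mesenchymal markers 4 are in it (CD44, S100A6, SNAI2 and CCN1, listed as CYR61), and all 4 were called higher in Tau-S199E than in Tau-WT. In the same comparison 48.3% of all genes were called higher, and whether the cells changed state was not tested. The mean of the 4 markers lay between 0.54 and 1.66 SD units in the Tau-S199E libraries and between -1.35 and -0.91 in the Tau-WT libraries. Whether the marker difference has a part in those of the host genes was not tested.

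All 3 host genes were higher with Tau-S199E than with Tau-WT. The difference was 2.32 SD units for SNHG6 (SE 0.46, 95% confidence interval 1.27 to 3.37), 2.25 for SNHG15 (SE 0.52, 1.05 to 3.46) and 2.23 for SNHG5 (SE 0.54, 0.99 to 3.48). The linear model by gene, fitted with limma and adjusted by Benjamini-Hochberg over 1676 genes, gave adjusted p = 0.00981 for SNHG6, 0.0104 for SNHG15 and 0.011 for SNHG5. The exact two-sided permutation test gave p = 0.1 for each, the smallest that 3 against 3 libraries allow. Among all genes tested, 48.3% passed in the same direction, and 50.5% had Tau-S199E libraries all above the Tau-WT libraries, so this behaviour is common in the table. In SD units the differences were larger than those of 93% of genes for SNHG6, 86% for SNHG15 and 83.2% for SNHG5. Such a rank compares separation relative to each gene's own spread and not the size of a fold change. By the size of the deposited log2 fold change, whose contrast is not named, the shares were 55%, 82.7% and 19.3% in that order.

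Without library 12 the 3 host genes still passed, at 1.81 SD units for SNHG6 (limma, adjusted p = 0.0255), 1.96 for SNHG15 (0.0361) and 2.14 for SNHG5 (0.0379). Over the table, 833 genes passed without library 12, against 1509 with all libraries. Centring each library on its median over the table moved the median difference of all genes by -0.54. The host genes then differed by 1.78 SD units for SNHG6 (limma, adjusted p = 0.0103), 1.71 for SNHG15 (0.016) and 1.69 for SNHG5 (0.0168). Over the table, 608 genes were then called higher and 762 lower, against 809 higher and 700 lower before centring.

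With Tau-K174Q the 3 host genes had higher means than with Tau-WT, and none passed. The difference was 1.35 SD units for SNHG15 (95% confidence interval 0.14 to 2.56), 1.23 for SNHG5 (-0.02 to 2.47) and 1.16 for SNHG6 (0.11 to 2.21). limma's adjusted p was 0.082, 0.0972 and 0.0847 in that order of genes, and 0 of 1676 genes passed, or 0%. The unadjusted p was under 0.05 in 870 genes, and limma with moderated variances called 1004, with 34.9% of the table called upward. SNHG15 (limma, moderated adjusted p = 0.0339) and SNHG5 (0.0485) were among them and SNHG6 (0.0594) was not. Libraries did not overlap for SNHG6 and SNHG15, as in 43.6% of genes in this direction, and did for SNHG5. The exact permutation p was 0.1 for SNHG6 and SNHG15 and 0.2 for SNHG5. The count depended on the double construct's libraries, which enter through the shared residual variance: without library 18, 675 genes passed, SNHG15 among them (adjusted p = 0.0427), and without library 16, 48 passed.

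With the double construct the differences from Tau-WT were 1.18 SD units for SNHG15 (95% confidence interval -0.03 to 2.38), 1.10 for SNHG5 (-0.15 to 2.34) and 0.73 for SNHG6 (-0.32 to 1.78). None passed in limma (adjusted p = 0.533 for each), libraries overlapped in all 3, and the exact permutation p was 0.2 for each. Of all genes 7.28% had no overlap in this direction. In this comparison 0% of genes passed with either variance, and 127 had an unadjusted p under 0.05. Leaving out library 16 gave 2 genes. Without library 18, the difference was 0.64 SD units for SNHG5, 0.69 for SNHG15 and 0.42 for SNHG6.

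Adding K174Q to Tau-S199E went with lower means for all 3 host genes, and the calls turned on library 18. With all libraries, the double construct minus Tau-S199E was -1.59 SD units for SNHG6 (95% confidence interval -2.65 to -0.54), -1.13 for SNHG5 (-2.38 to 0.11) and -1.08 for SNHG15 (-2.28 to 0.13). limma's adjusted p was 0.0644 for SNHG6, 0.105 for SNHG5 and 0.109 for SNHG15, where 0.119% of genes passed downward and 0% upward. SNHG6 libraries did not overlap, as in 22.1% of genes in this direction (exact permutation p = 0.1), and SNHG6 passed with moderated variances (limma, adjusted p = 0.0179), as did 34.4% of genes in this direction. Without library 18 all 3 passed, at -1.90 for SNHG6 (limma, adjusted p = 0.0195), -1.56 for SNHG15 (0.0261) and -1.59 for SNHG5 (0.0301), and 1315 genes of the table passed, against 2 with it.

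The remaining pairs held no call for the host genes. Tau-K174Q-S199E minus Tau-K174Q was -0.43 SD units for SNHG6, -0.18 for SNHG15 and -0.13 for SNHG5, with limma's adjusted p of 0.549, 0.809 and 0.858. The SNHG6 difference was -0.73 without library 18 and -0.15 without library 16. The intervals ran from -1.48 to 0.62 for SNHG6, from -1.38 to 1.03 for SNHG15 and from -1.37 to 1.12 for SNHG5, so differences of 1 SD unit in either direction remain possible for SNHG15 and SNHG5. In that pair 0% of genes passed, 2 with moderated variances and 142 without library 18, and 138 had an unadjusted p under 0.05. Tau-S199E minus Tau-K174Q was 1.17 SD units for SNHG6 (limma, adjusted p = 0.284), 1.0 for SNHG5 (0.366) and 0.90 for SNHG15 (0.368). Here libraries of SNHG6 and SNHG15 did not overlap, as in 17.7% of genes in this direction, and 0.0597% of genes passed upward. Without library 12 the SNHG6 difference was 0.65, and without library 6 the difference was 0.63 for SNHG5 and 0.59 for SNHG15.

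**Figure D2:**
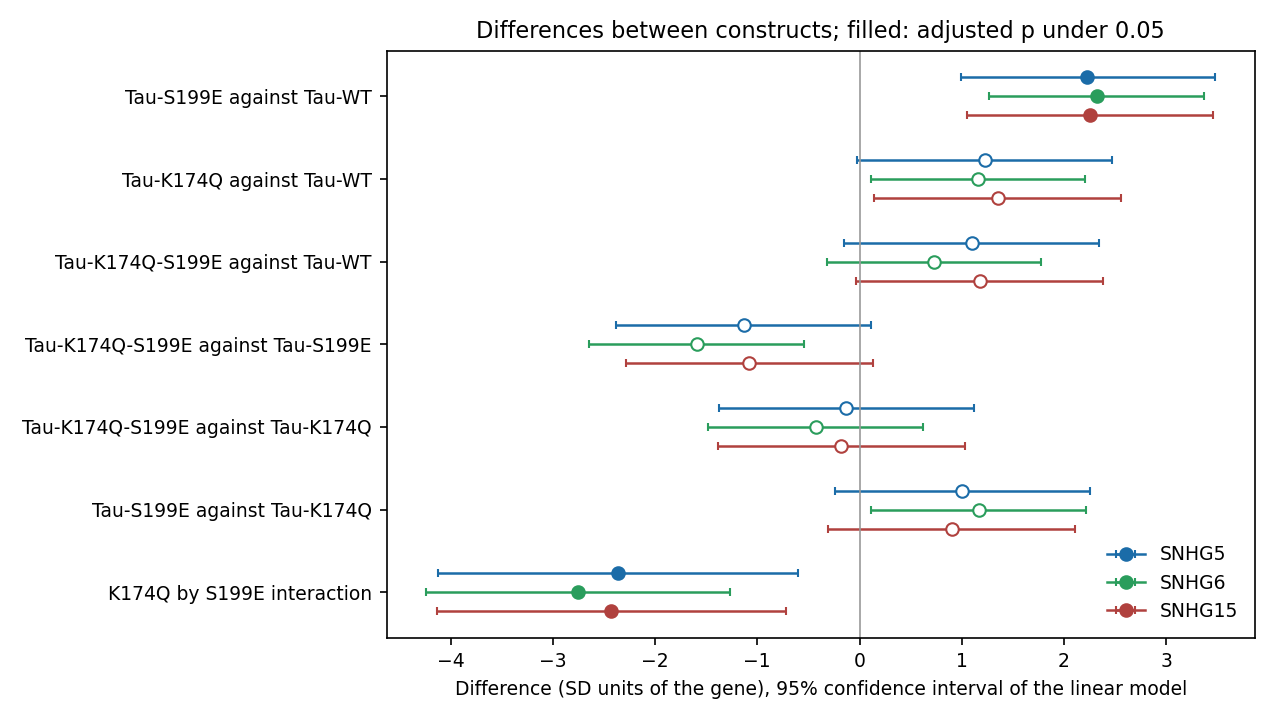
Difference between constructs (horizontal axis, SD units of the gene) with its 95% confidence interval for each host gene and comparison. Filled points have an adjusted p under 0.05: the 3 genes in Tau-S199E against Tau-WT (2.23 to 2.32) and in the interaction (-2.75 to -2.36), and none in the other 5 comparisons.

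The interaction asks whether adding K174Q had the same effect on Tau-S199E as on Tau-WT, as the double construct minus Tau-S199E, less Tau-K174Q minus Tau-WT. It was -2.75 SD units for SNHG6 (SE 0.64, 95% confidence interval -4.24 to -1.27), -2.43 for SNHG15 (SE 0.74, -4.13 to -0.72) and -2.36 for SNHG5 (SE 0.76, -4.12 to -0.60). limma's adjusted p was 0.0182, 0.0199 and 0.0219 in that order. The means with K174Q lay below those without it in the S199E background, and above them in the wild-type background. Of all genes 51.5% passed in this direction and 45.5% in the other, so the call by itself does not set the host genes apart. In SD units the interaction was larger in size than that of 61.5% of genes for SNHG6, 20% for SNHG15 and 14.6% for SNHG5. With each library centred on its median the larger direction turned, to 790 genes higher and 742 lower, against 762 higher and 863 lower before. All 3 still passed when any 1 library was left out, with adjusted p of 0.0469 at most. These comparisons share the Tau-WT and Tau-S199E libraries and are not separate evidence.

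**Figure D3:**
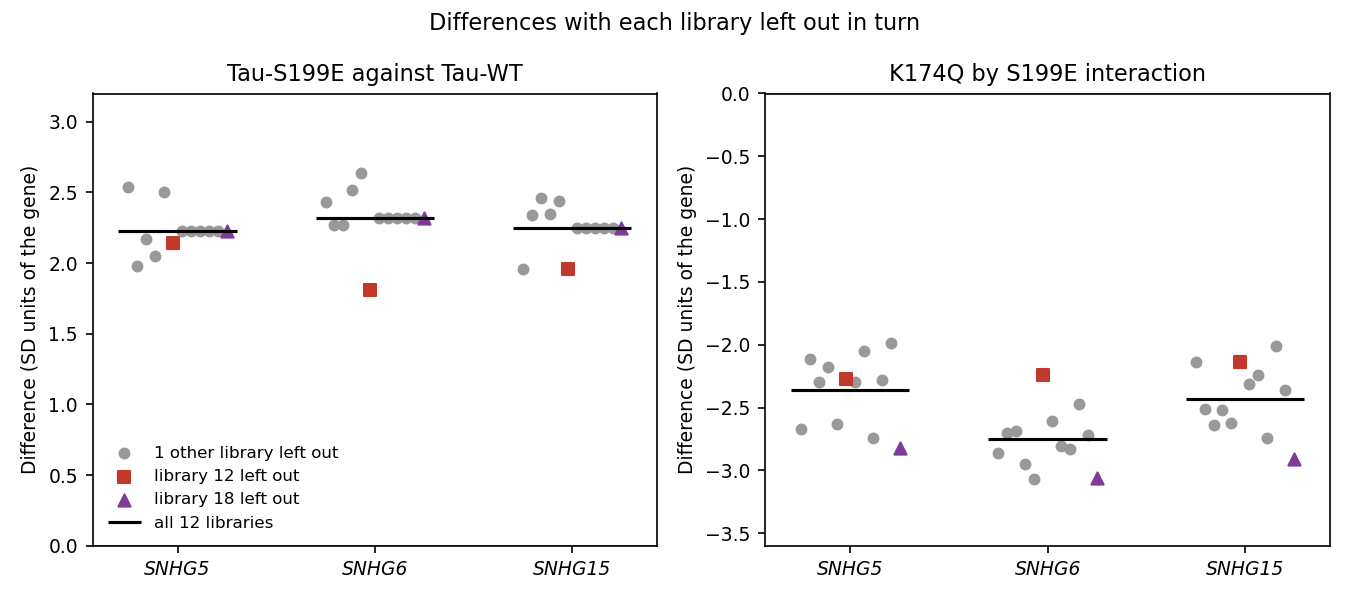
Difference in SD units (vertical axis) for Tau-S199E against Tau-WT and for the interaction, with each of the 12 libraries left out in turn (points) and with all libraries (lines). No point crosses 0, and leaving out library 12 gives SNHG6 its smallest values, 1.81 for Tau-S199E against Tau-WT and -2.24 for the interaction.

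In the authors' deposited table the log2 fold change was -2.16 for SNHG15 (adjusted p-value 0.00351), -1.42 for SNHG6 (0.000529) and -0.98 for SNHG5 (0.0306). The contrast behind these values is not named in the header of the authors' deposited table, whose median size of log2 fold change was 1.36. Over all 1676 genes their sign equalled the sign of the interaction without exception, and was the opposite of Tau-S199E against Tau-WT without exception. It was the opposite of Tau-K174Q against Tau-WT in 1675. The directions above are thus tied to how the table was made, since each gene with a negative value there had a higher mean with Tau-S199E than with Tau-WT. The highest adjusted p-value deposited there was 0.0499, so the genes were already selected. Neither the interaction calls nor the calls of Tau-S199E against Tau-WT can be taken as independent of that selection. The authors put all 3 host genes in cluster 4, one of 4 clusters, which has 533 genes.

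Over the 12 libraries the Pearson correlation was 0.89 between SNHG6 and SNHG15, and 0.84 for SNHG5 with either. The median correlation of a gene of the table with SNHG5, SNHG6 and SNHG15 was 0.56, 0.63 and 0.62. Many genes came closer than the host genes did to each other. With SNHG6, 30.7% of the other 1675 genes correlated more highly than SNHG5 did, and 20.3% more highly than SNHG15. With SNHG15 the shares were 20.4% above SNHG5 and 7.94% above SNHG6. With SNHG5 they were 11.6% above SNHG6 and 11.4% above SNHG15. Of deviations from the construct means, which leave out the construct effect, the correlation was 0.66 between SNHG6 and SNHG15, 0.47 between SNHG5 and SNHG15 and 0.46 between SNHG5 and SNHG6. The median of these correlations over the table was 0.10 for SNHG5, 0.26 for SNHG6 and 0.17 for SNHG15. These points share libraries and constructs, so the values are a description.

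The genes with values most like SNHG5 were IGFBP7, a secreted binding protein (0.96), NDUFB1, a subunit of respiratory complex I (0.95), PSMD5, a proteasome assembly factor, HLA-B, a class I histocompatibility protein, and COX7B, a subunit of cytochrome c oxidase (0.94 each). For SNHG6 they were UQCRFS1, the iron-sulfur protein of respiratory complex III, and BTBD6 (0.99 each), then PFKM, a phosphofructokinase, ODC1, the first enzyme of polyamine synthesis, and KPNA2, a nuclear import receptor (0.98 each). For SNHG15 they were PTGFRN (0.96), PSMD11, a proteasome subunit, SGCE, a sarcoglycan, and PSAT1, an enzyme of serine synthesis (0.95 each), and the transcription factor ATF1 (0.94). By the mean correlation with the 3 host genes, SGCE, SEC23A, PTPRF, PFKM and FAM162A led (0.92 each, n = 12 libraries). With Spearman correlation 3 of the 5 genes for SNHG5, 2 for SNHG6 and 3 for SNHG15 stayed among the nearest. With deviations from the construct means, 2 of the 5 stayed for each host gene.

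From a list of 30 noncoding host genes, SNHG5 included, 8 besides the 3 above were in the table. These 8 did not all behave like the 3. In Tau-S199E against Tau-WT, ZFAS1, DANCR, SNHG17 and SNHG7 rose, SNHG29, EPB41L4A-AS1 and SNHG25 fell, and SNHG32 did not pass. Over all genes the shares were 48.3% up and 41.8% down, and the list's median was 1.37 SD units against 1.41 over all genes. Without library 12, 4 of the 7 passed, and calls over the whole table went from 1509 to 833.

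ZFAS1, which hosts box C/D snoRNAs, was nearest to the 3 genes: it averaged 1.15 ± 0.66 SD units in Tau-S199E, 0.22 ± 0.27 in Tau-K174Q, -0.07 ± 0.60 in Tau-K174Q-S199E and -1.30 ± 0.22 in Tau-WT. Tau-S199E minus Tau-WT was 2.44 (limma, adjusted p = 0.00968), and its correlation was 0.94 with SNHG6, 0.93 with SNHG15 and 0.89 with SNHG5. DANCR, an H/ACA host, differed by 2.03 (adjusted p = 0.0138). SNHG17 differed by 1.72 (0.0346) and SNHG7 by 1.5 (0.0401). Both lost the call with each library centred on its median, at 0.0722 for SNHG17 and 0.132 for SNHG7. Without library 12 ZFAS1 (0.0236) and DANCR (0.0475) passed, and SNHG17 (0.107) and SNHG7 (0.106) did not.

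SNHG29, a box C/D host, fell by 2.14 SD units (limma, adjusted p = 0.013), EPB41L4A-AS1, an H/ACA host, fell by 2.05 (0.0163), and SNHG25 fell by 1.99 (0.0149). SNHG29 averaged -1.04 ± 0.13 in Tau-S199E, -0.28 ± 0.39 in Tau-K174Q, 0.23 ± 1.27 in Tau-K174Q-S199E and 1.10 ± 0.30 in Tau-WT, the reverse order of the 3 genes. Its correlation with SNHG15 was -0.92. Without library 12, SNHG29 passed (limma, adjusted p = 0.0399), EPB41L4A-AS1 passed by a hair (0.05 as rounded) and SNHG25 missed the threshold (0.0521).

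SNHG7 and SNHG32, which the table lists as C6orf48 and GENCODE 29 types as protein-coding, were highest in Tau-K174Q. SNHG32 averaged 0.10 ± 0.16 SD units in Tau-S199E, 1.06 ± 0.23 in Tau-K174Q, -0.02 ± 1.27 in Tau-K174Q-S199E and -1.14 ± 0.39 in Tau-WT. SNHG7 averaged 0.47 ± 0.34 in Tau-S199E, 0.93 ± 0.36 in Tau-K174Q, -0.36 ± 1.30 in Tau-K174Q-S199E and -1.03 ± 0.39 in Tau-WT. Against Tau-WT, Tau-K174Q was higher by 2.20 for SNHG32 and 1.96 for SNHG7, with limma's adjusted p of 0.066 for both, so neither passed. In the interaction all 8 passed, 5 downward and 3 upward, where 51.5% of all genes passed downward and 45.5% upward, so this is the behaviour of the whole table.

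**Figure D4:**
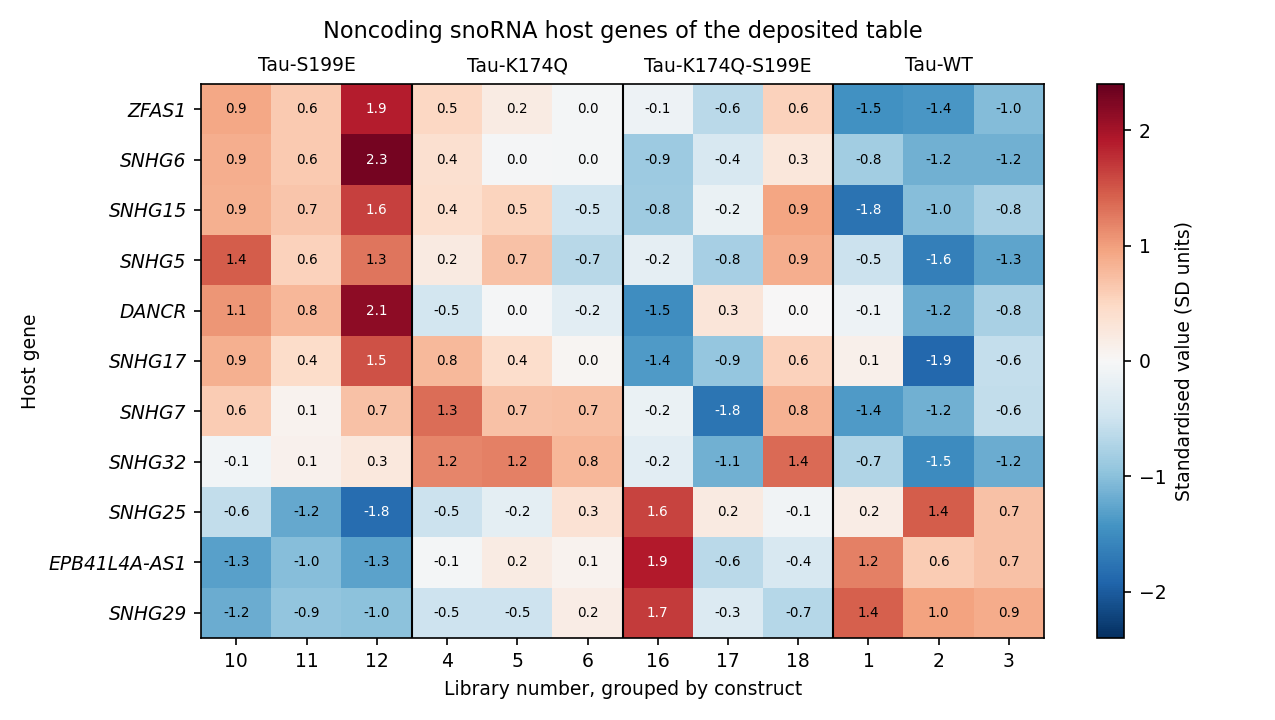
Standardised values (colour and number, SD units of the gene) of the 11 noncoding host genes of the table in the 12 libraries, grouped by construct and ordered by Tau-S199E minus Tau-WT. The upper 8 genes have all 3 Tau-S199E libraries above all Tau-WT libraries, as in 50.5% of all genes. SNHG25, EPB41L4A-AS1 and SNHG29 have them below, and the share of all genes in that direction is not given here.

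Proteins that bind or assemble snoRNAs went in both directions. Of 23 looked for, 6 were in the table, and in Tau-S199E against Tau-WT 2 rose, 3 fell and 1 did not pass, where 48.3% of all genes were called higher and 41.8% lower. The median of these 6 genes was -1.76 SD units against 1.41 over all genes. The list holds few genes, of both signs, and whether it departs from the whole table was not tested. ZNHIT3, an assembly factor of box C/D particles, rose by 2.52 (limma, adjusted p = 0.00687), and NOP10, a core protein of H/ACA particles, by 1.52 (0.0272). DKC1, the pseudouridine synthase of H/ACA particles, fell by 2.10 (0.0125), NOP58, a core box C/D protein, fell by 2.02 (0.016) and NOLC1, a chaperone of both kinds, fell by 2.29 (0.01). TCOF1, the nucleolar protein treacle, differed by -1.51 (0.0761). Without library 12, 3 of the 5 passed, beside 833 genes of the whole table against 1509 with it.

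Protein-coding genes that host snoRNAs divided much as the whole table did. Of 53 looked for, 23 were in the table, and 13 rose, 8 fell and 2 did not pass in Tau-S199E against Tau-WT, beside 48.3% of all genes higher and 41.8% lower. Their median was 1.91 SD units against 1.41 over all genes. TOMM20, a receptor of mitochondrial protein import, rose by 2.54, EEF1B2, an exchange factor of translation elongation, by 2.33, and RPL30, a ribosomal protein, by 2.25. NCL, the nucleolar protein nucleolin, fell by 2.33. Genes other than ribosomal proteins whose messenger RNA begins with the pyrimidine tract had 7 of 13 higher and 6 lower, also near the shares of the whole table. EEF1B2 and CCNI, a cyclin (2.17), and TMSB10, an actin-binding thymosin (2.14), rose, and EIF3L, an initiation factor subunit, fell by 2.15. Without library 12, 15 of the 21 protein-coding hosts and 6 of the 13 tract genes passed. Calls over the whole table went from 1509 to 833.

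The exon junction complex marks spliced RNA for nonsense-mediated decay. EIF4A3, a core protein of this complex, rose by 2.09 SD units in Tau-S199E against Tau-WT, and RBM8A, another core protein of it, fell by 2.11. Of 28 transcripts known as decay targets 7 were in the table, and 3 rose and 4 fell, against 48.3% of all genes higher and 41.8% lower. GADD45B (2.37), SRSF7 (2.15) and HNRNPL (2.11) rose, and the stress transcription factor ATF4 fell by 1.86. Of 11 genes of the MYC network 2 were in the table, and both encode proteins that pair with MAX. MXD4 fell by 2.15 and MGA fell by 1.58. Without library 12, 3 of the 7 targets and 1 of these 2 genes passed, beside 833 genes of the whole table against 1509 with it.

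Of 37 other genes typed as long noncoding in GENCODE 29, 10 rose, 22 fell and 5 did not pass in Tau-S199E against Tau-WT. Over all genes 48.3% were called higher and 41.8% lower, and whether the list departs from those shares was not tested. Their median was -1.72 SD units against 1.41 over all 1676 genes. NR2F1-AS1 fell by 2.38 and PXN-AS1 rose by 2.26, with ZFAS1 the largest of the risers by size. Without library 12, 16 of the 32 passed, and calls over the whole table went from 1509 to 833. The 91 genes with no name in the deposited table are all of types other than protein-coding, and all 1585 named ones are protein-coding.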

How the data were processed

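Polyadenylated RNA of 12 SH-SY5Y libraries, 3 for each of 4 constructs, was analysed from 1 table that the authors deposited. Library columns hold a score that the authors had standardised gene by gene to mean 0 and SD 1, which was checked on the values. The deposited fold change is on the log2 scale and comes with an adjusted p-value, per the file headers. Tools named without a role in the submitters' processing notes are RSEM 1.2.31, STAR 2.5.3a and DESeq2, with build GRCh38. How values were transformed, which genes were kept and which strand was counted is not given in the sources used here. Standardising leaves no depth, so no interval or floor for counting error can be given, and a count test, pseudocount or low-value filter cannot be applied.

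Groups come from the labels. The library columns name a construct and a library number, and 0 columns of per-sample values were left out. Each gene was fitted with limma 3.58.1 (R 4.3.3), 1 mean per construct over 12 libraries, its own residual variance (8 degrees of freedom), two-sided, with Benjamini-Hochberg adjustment over 1676 genes and a threshold of 0.05. Single pairs also had an exact permutation test. Alternatives were moderated variances, the 6 libraries of a pair, each library left out, centred libraries and ranks. The code was tested on simulated data. Annotation is from GENCODE 29 and RefSeq GRCh38.p14.

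The 3 genes and the gene lists were chosen with earlier results of these data known. Named genes are the 3 host genes, each other host gene and snoRNA-binding protein in the table, up to 4 of each other list with the largest difference between Tau-S199E and Tau-WT, the 5 most correlated genes, and genes next to a host gene. Long noncoding RNAs were taken by their GENCODE type, since the deposited table has no such column. The result of 1 listed gene, and the counts of its list, are not reported here.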

Additional observations from a re-analysis of the deposited data

Results flagged for a closer look

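The effect of adding K174Q differed between the S199E and the wild-type background for all 3 host genes, by limma's test of the interaction itself (Benjamini-Hochberg over 1676 genes). For SNHG6 the interaction was -2.75 SD units (adjusted p = 0.0182): the double construct minus Tau-S199E was -1.59, and Tau-K174Q minus Tau-WT was 1.16. For SNHG15 it was -2.43 (adjusted p = 0.0199), from -1.08 and 1.35. For SNHG5 it was -2.36 (adjusted p = 0.0219), from -1.13 and 1.23. Of the 1676 genes 1625 passed this test, so the 3 share it with nearly the whole table, and its sign equals that of the deposited fold change in every gene. The highest adjusted p-value that the authors deposited was 0.0499, so the genes had been selected before this test. The call is therefore not independent evidence of an interaction. Neither the double construct minus Tau-S199E nor Tau-K174Q minus Tau-WT passed by itself in any of the 3 genes (limma without moderated variances, all libraries). With moderated variances, Tau-K174Q minus Tau-WT passed for SNHG15 (limma, moderated adjusted p = 0.0339) and SNHG5 (0.0485). The double construct minus Tau-S199E then passed for SNHG6 (0.0179).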

How the results depend on the processing

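No paired analysis was possible because the columns carry library numbers and not the replicate numbers of the labels. For the 3 host genes, Tau-S199E against Tau-WT and the interaction kept direction and call under every alternative run. In Tau-K174Q against Tau-WT, moderated variances called SNHG5 (1.23) and SNHG15 (1.35), the 6 libraries of the pair called SNHG6 (1.16), and SNHG15 ran from 1.06 to 1.66 with each library left out. The number of genes called was 0, against 1004 with moderated variances, 26 with ranks, 819 with 6 libraries and 0 to 675 with a library left out. In Tau-K174Q-S199E against Tau-S199E, SNHG6 was called with moderated variances (-1.59) and ranks (-5.67 ranks). With a library left out SNHG6 ran from -1.92 to -1.08, SNHG5 from -1.59 to -0.76 and SNHG15 from -1.56 to -0.66. The 2 calls there became 1153 with moderated variances, 1 when centred, 411 with ranks, 0 with 6 libraries and 0 to 1315 with a library left out. In Tau-K174Q-S199E against Tau-K174Q, SNHG5 turned to 0.01 when centred, 0.18 without library 5 and 0.24 without library 17 (range from -0.59), and SNHG15 to 0.02 without library 5 and 0.24 without library 16 (range from -0.66). Calls there were 0, against 2 with moderated variances and 0 to 142 with a library left out. Tau-S199E against Tau-K174Q had 1 call, against 0 with moderated variances, ranks or 6 libraries and 0 to 3 with a library left out. Tau-K174Q-S199E against Tau-WT had 0 to 2 with a library left out, and Tau-S199E against Tau-WT had 833 to 1572. Without library 12, an alternative chosen after seeing the data, the listed genes called were 4 noncoding hosts against 7 with it, 3 snoRNA-binding proteins against 5, 6 pyrimidine-tract genes against 13, 3 decay targets against 7, 1 MYC network gene against 2 and 16 long noncoding RNAs against 32. The cause of these changes was not tested, and fewer libraries also leave fewer degrees of freedom. Depth is unknown, 3 libraries per construct limit the precision, and the table is a selected list, so its shares say nothing of other genes.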

Other observations

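The genes of the table next to each host gene on its chromosome did not share one direction in Tau-S199E against Tau-WT. COPS5, a subunit of the COP9 signalosome whose start lies 0.12 Mb from that of SNHG6, was higher by 2.03 SD units (limma, adjusted p = 0.019), and ARMC1, on the other side at 1.32 Mb, fell by 2.07 (0.0104). NUDCD3, at 0.6 Mb from SNHG15, fell by 2.13 (0.0147), and SEC61G, a translocon subunit at 9.77 Mb, rose by 1.82 (0.0188). TMEM30A, a flippase subunit at 10.41 Mb from SNHG5, rose by 2.09 (0.0136), and PNRC1, at 3.42 Mb, differed by 1.40 (0.0797).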
